A study of Drosophila melanogaster with 11 samples.

Results

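BTB zinc finger genes encode transcription factors that join a BTB domain, through which the proteins pair with each other or with partners, to a DNA-binding region. This report describes 10 of them, ttk, lola, br, bab1, bab2, chinmo, ab, fru, psq and Trl, in DamID of E(spl)m8-HLH in Drosophila melanogaster embryos. The genes were listed by family, with earlier results of these data known. A peak was assigned to a member when the peak table names that gene as intersecting or, where a peak lies between genes, as flanking. Members were found in 28 of 3973 peaks of the main table, and 9 of the 10 genes had at least 1 such peak. The exception was br. The same peaks named 13.7% of all genes, and 50.8% of the genes at least as long as Trl, the shortest member.

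The embryos carried UAS-m8-DamID without a Gal4 driver, so that low leaky expression of the transgene supplies E(spl)m8-HLH, a helix-loop-helix repressor made in response to Notch signaling, fused to a bacterial Dam methylase. The fusion leaves a methyl mark on GATC sites near the places where it meets DNA, and marked fragments are cut, amplified and sequenced. Whole embryos of stage 9 to 16, raised at 26 °C, were used, and the tables hold 1 of the 2 libraries of this condition, without saying which. Of the 11 libraries listed in 6 conditions, the others (m5 DamID, DamID driven by pros-Gal4, and FLAG ChIP of Su(H) and m8 driven by pros-Gal4) were not analysed here, and none is of unfused Dam, so that binding of m8 and access of Dam to open chromatin cannot be told apart. Peaks found with Qseq form the main table, and peaks found with MACS in the same library, 4209 above 20 RPM and 1310 below, were set beside them. For Qseq, RPM is the number of reads of a peak per 1000000 reads of the library, which held 1925156 reads by the deposited counts. For MACS the intervals assume the same rule. It cannot hold where a MACS peak has a lower RPM than a Qseq peak inside it. With 1 library there is no replicate. The intervals given are exact Poisson intervals at 95%. They cover counting error only, because PCR copies of a fragment are not separate molecules.

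The family serves many steps of neural development. Ttk (Tramtrack) holds cells out of neuronal fate, Chinmo sets the temporal identity of neurons and acts in stem cells, Lola guides axons and keeps neurons differentiated, and Ab (Abrupt) shapes the dendrites of sensory neurons. Fru (Fruitless) patterns the nervous system for male courtship, Br (Broad) is an early gene of the ecdysone response, and Bab1 and Bab2 (Bric-a-brac) act in limbs, ovary and abdomen. Psq (Pipsqueak) and Trl (GAGA factor) bind GA-rich DNA and act on chromatin.

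Sequence could be read for chinmo, ab, bab1 and bab2. Within 1 Mb of each of them, all genes listed as intersecting a Qseq peak overlap it in the Release 6 annotation (56 of 56 cases at chinmo, 48 of 48 at ab, and 76 of 76 at bab1 and at bab2). Peak starts also lay within 3 bp of a GATC in 41.8% of the 694 Qseq peaks of 2L and in 41.8% of 201 peaks on the first part of 3L, against 1.87% and 4.48% at positions 1000 bp to the right. The numbering around the other 6 members did not match that annotation, and their positions are given as the authors number them.

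The stretches shown come from 5 peaks at chinmo, ab and bab1 that carry CACGTG or its relative CACGCG, which are known as sites of Hairy and E(spl) repressors. Capitals mark these words on either strand, the GATC that Dam methylates, and GTGGGAA, the core that Su(H) is known to bind. The peaks lie upstream of chinmo or in introns.
chinmo, highest Qseq peak (chr2L:1633083-1633208, plus strand): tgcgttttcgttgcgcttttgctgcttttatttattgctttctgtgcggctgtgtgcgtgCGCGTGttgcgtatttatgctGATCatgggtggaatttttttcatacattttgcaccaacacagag
chinmo, second Qseq peak (chr2L:1644641-1644936, plus strand): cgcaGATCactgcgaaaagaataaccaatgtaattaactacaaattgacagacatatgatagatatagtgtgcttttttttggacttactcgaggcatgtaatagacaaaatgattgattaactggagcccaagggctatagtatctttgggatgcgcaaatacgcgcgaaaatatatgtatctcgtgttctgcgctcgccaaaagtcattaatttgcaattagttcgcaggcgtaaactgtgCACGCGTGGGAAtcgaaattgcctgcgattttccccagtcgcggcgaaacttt
ab, Qseq peak (chr2L:11225086-11225211, plus strand): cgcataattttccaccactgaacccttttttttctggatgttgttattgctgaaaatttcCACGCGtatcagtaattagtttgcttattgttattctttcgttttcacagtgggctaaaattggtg
bab1, highest MACS peak (chr3L:1096995-1097120, plus strand): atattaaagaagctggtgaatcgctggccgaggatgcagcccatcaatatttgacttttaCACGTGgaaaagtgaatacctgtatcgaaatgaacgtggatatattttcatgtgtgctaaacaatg
chinmo, MACS peak in the intron (chr2L:1657151-1657276, plus strand): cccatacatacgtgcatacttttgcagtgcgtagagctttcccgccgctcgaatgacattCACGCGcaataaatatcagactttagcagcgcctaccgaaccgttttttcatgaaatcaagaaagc

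In the second chinmo sequence the E(spl) word, on both strands, and the Su(H) core share letters in the run CACGCGTGGGAA, at 1644884 to 1644895 on 2L. Of 895 Qseq peaks on 2L and the checked part of 3L, 1 held CACGCG overlapping GTGGGAA, and that is this peak. This run was singled out after the sequence had been seen. It lies 243 bp from the start of the peak.

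Of the 10 members listed, 9 were named at a Qseq peak, where 13.7% of all 17684 genes on the chromosome arms were named. The list was made with earlier results of these data known. The shares given here thus describe these 10 genes, and enrichment of the family was not tested. Members are long, from 13.1 kb (Trl) to 131.3 kb (fru), and long genes collect more peaks: among the 1589 genes at least as long as Trl, 50.8% were named. In the MACS table above 20 RPM all 10 members were named, against 17.7% of all genes and 59.5% of the long ones. With the MACS peaks under 20 RPM added, these shares are 22.2% and 67.7%. Each of the 9 genes also had a Qseq peak inside the gene, for which the shares are 10.4% and 47.1%. A pair of peaks or more was found at 7 of 10 members and at 29.8% of the long genes. These counts take peaks as the caller split them, and the 2 peaks of bab2 overlap and would join to 1. Per 10 kb of gene, members were named by 0.533 Qseq peaks and the long genes by 0.325. The median member peak had 50.7 RPM, against 40.5 RPM over all Qseq peaks, and 8 of 28 member peaks (28.6%) exceeded 100 RPM, against 16.1% of all. The highest peaks ranked chinmo (345.4 RPM), lola (342.3), ttk (263.4), Trl (180.8), psq (155.3), bab1 (77.4), fru (72.2), bab2 (51.4) and ab (50.4). Intervals overlap between chinmo and lola, between Trl and psq, between bab1 and fru, and among fru, bab2 and ab. They do not overlap between lola and ttk, ttk and Trl, or psq and bab1. The place of a peak in the table depends on its length too: by reads per bp, the highest Trl peak is matched or passed by 17.0% of Qseq peaks in place of 6.07%, and the highest bab1 peak by 3.62% in place of 23.1%.

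**Figure D1:**
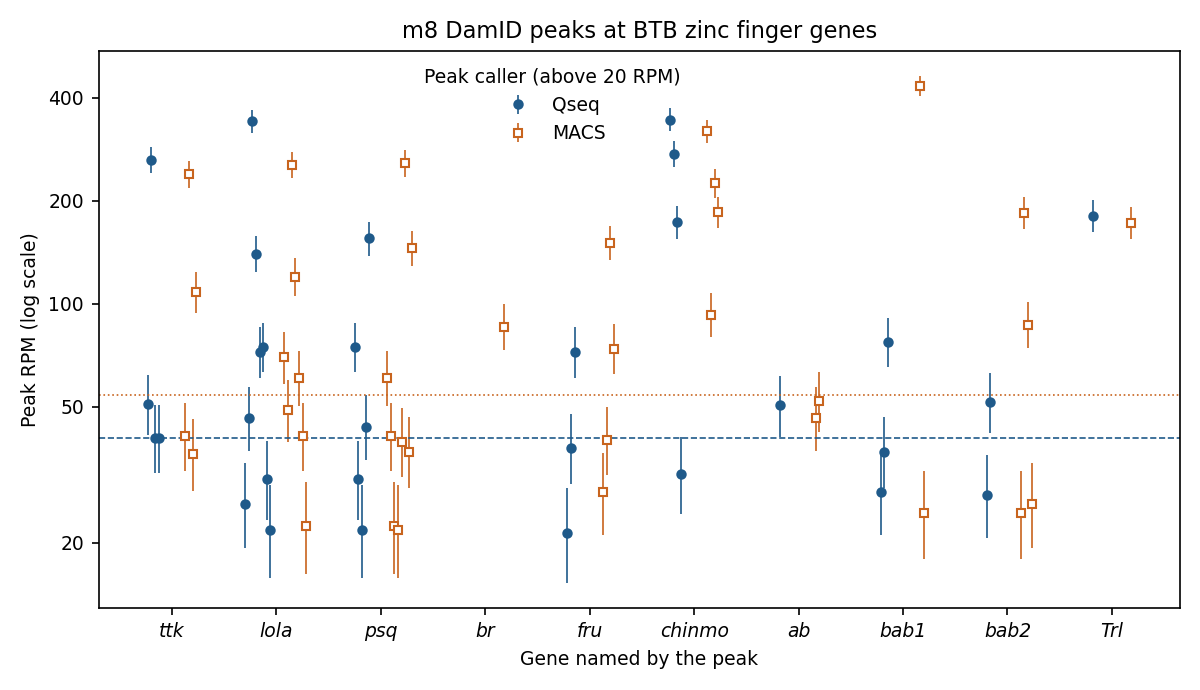
RPM of every peak that names a member (log axis), for Qseq (filled circles) and MACS above 20 RPM (open squares). Bars are 95% Poisson intervals, nominal for MACS. The dashed line is the median of all Qseq peaks (40.5 RPM) and the dotted line that of all MACS peaks (54.0 RPM). The highest Qseq peaks are at chinmo and lola, the highest MACS peak is at bab1 (433.2 RPM), and br has a MACS peak alone.

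**Figure D2:**
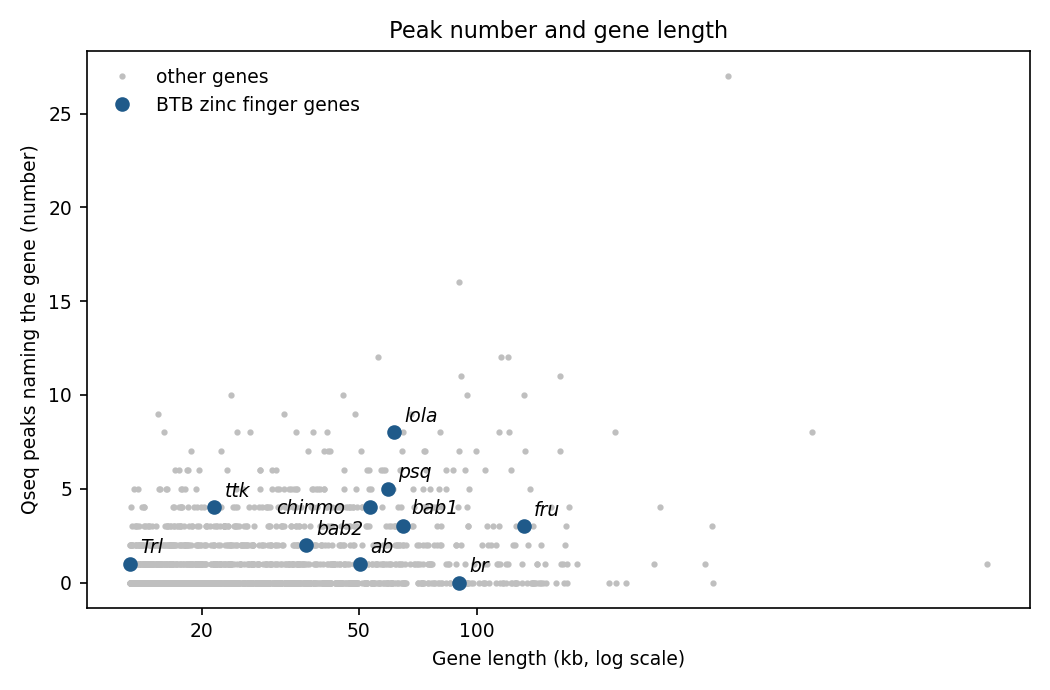
Number of Qseq peaks naming a gene against gene length (kb, log axis) for the 1589 genes at least as long as Trl. Members (large points) run from 0 peaks at br to 8 at lola and lie among the other genes (grey) at each length.

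In the Qseq table chinmo, beside lola, carried the highest values of the family, and they lay upstream of the gene. In the interval between RFeSP and chinmo, 3 Qseq peaks reached 345.4 RPM (interval 319.7 to 372.7), 274.8 RPM (251.9 to 299.2) and 173.0 RPM (154.9 to 192.6). They hold 665, 529 and 333 reads. None of the 3 intervals overlaps another, so that the RPM differ by more than counting error. The fall from the far peak to the near one depends on peak length. By reads per bp the far, middle and near peaks have 0.399, 0.490 and 0.174. The far peak (2L, 1631945 to 1633611) ends 17.6 kb before the first start site of chinmo, the middle one (1644641 to 1645720), which holds the run CACGCGTGGGAA, 5.54 kb before it, and the near one (1646311 to 1648219) 3.04 kb before it. They are matched or passed by 1.99%, 3.05% and 6.49% of the table. The middle peak is the densest of the 28, at 0.490 reads per bp. Inside the gene, in an intron, a Qseq peak of 31.7 RPM (24.2 to 40.7) is lower than each of the upstream peaks.

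MACS held the far and middle chinmo peaks too, at 319.5 and 224.9 RPM, and not the near one. It added a peak of 93.0 RPM (79.9 to 107.6) between them and one of 184.9 RPM (166.2 to 205.2) in the intron. The intron peak of MACS ends 120 bp before the weak Qseq peak begins, without overlap. A further MACS peak of 14.0 RPM lay on a UTR exon near the end of chinmo.

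Abrupt, which like chinmo is known as a target of the microRNA let-7, carried less. A single Qseq peak of 50.4 RPM (40.9 to 61.5; 97 reads) lay in an intron of ab on 2L, from 11224575 to 11225259, and is matched or passed by 39.9% of the table. MACS gave 51.9 RPM to the same place and added a peak of 46.2 RPM (37.1 to 56.9) in an intron, centred 6.38 kb past the nearest start site. The Qseq peak has CACGCG in its letters, and neither ab peak covers a start site.

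The paralogs bab1 and bab2 lie next to each other on 3L, both on the minus strand, and none of the bab1 Qseq peaks was overlapped by a MACS peak. Qseq placed 3 peaks in an intron of bab1, at 28.1, 36.9 and 77.4 RPM. The highest (65.5 to 90.9; 1098512 to 1098900) is centred 2.38 kb past the start site. Between the latter 2 peaks, from 1096743 to 1097835, MACS placed a peak of 433.2 RPM (404.3 to 463.6), which ranks 41 among the 4209 MACS peaks above 20 RPM. It holds CACGTG, its centre is 3.80 kb past the start site, and no Qseq peak overlaps it. The gaps to the nearest Qseq peaks are 1179 bp on one side and 677 bp on the other. The bab1 value is thus 77.4 or 433.2 RPM according to the caller.

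At bab2, Qseq gave adjoining peaks of 27.5 and 51.4 RPM (41.8 to 62.6) in an intron, centred 6.96 and 6.15 kb past the start site. MACS joined them to 1 peak of 86.7 RPM (74.1 to 100.9). Farther into the gene MACS added 184.4 RPM (165.7 to 204.6), at 16.1 kb from the nearest Qseq peak. A weak MACS peak of 26.0 RPM (19.3 to 34.2) covered the start site that both bab2 transcripts share. It was the only peak of either caller to cover a start site of the 4 placed genes. Of the 10 Qseq peaks at these genes, 7 lay in introns, 3 upstream and 0 on a start site. Over all Qseq peaks 74.7% lay inside a gene. Their shares in introns and on start sites were not counted, so no avoidance of start sites can be read from this. Between bab1 and bab2 a MACS peak of 24.4 RPM named both, and 3 MACS peaks under 20 RPM, from 12.5 to 19.7 RPM, lay inside bab1.

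**Figure D3:**
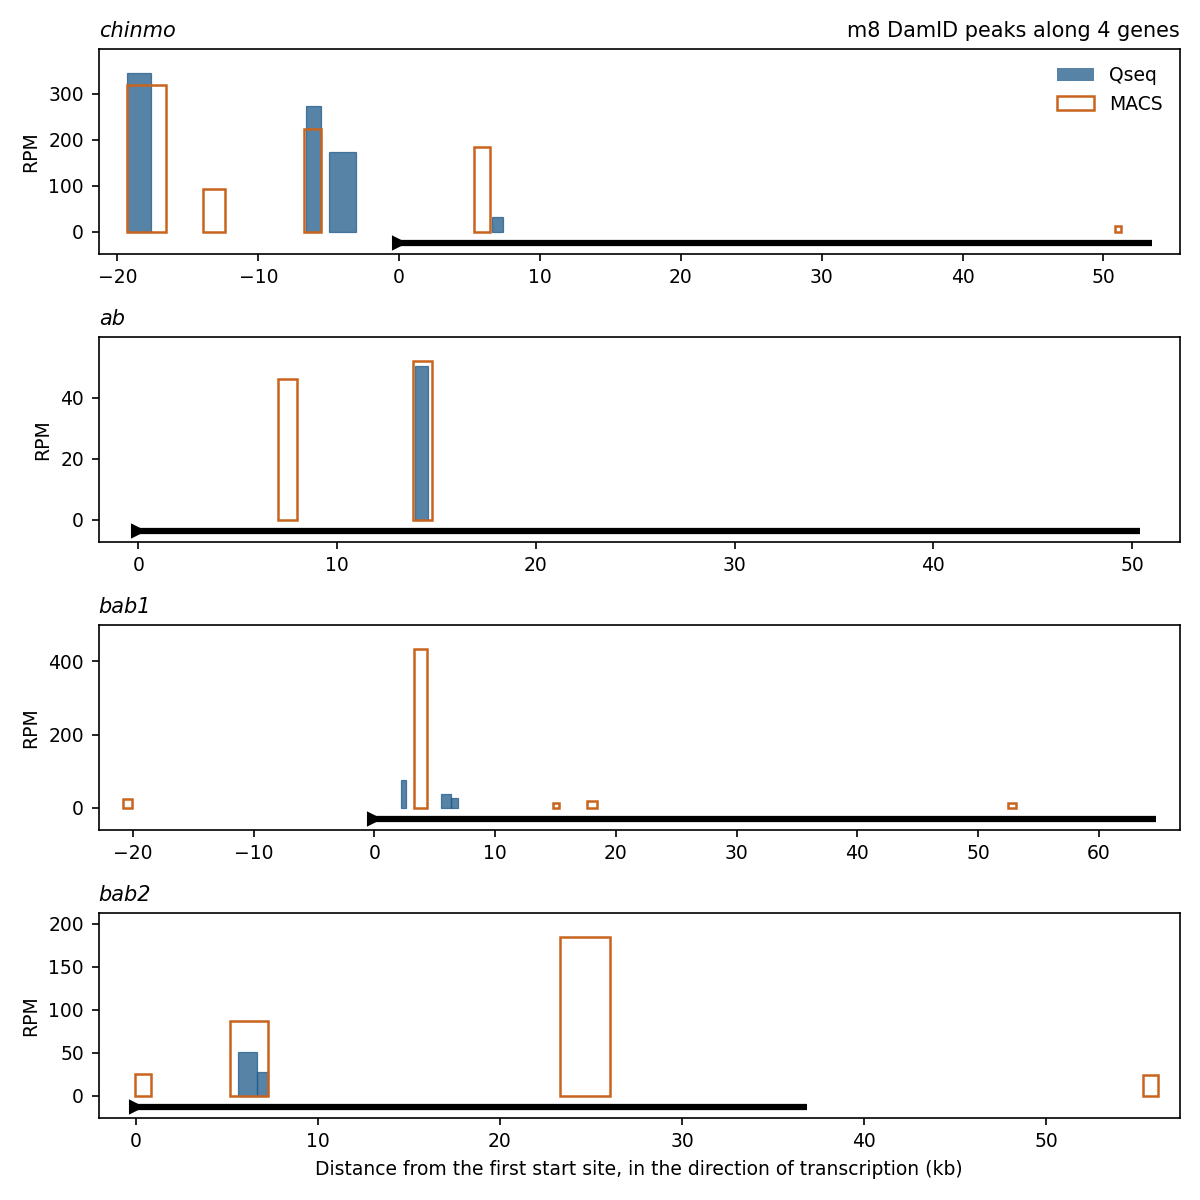
Peaks along chinmo, ab, bab1 and bab2, by distance from the first start site in the direction of transcription (kb). Bar height is RPM and bar width is peak length, filled for Qseq and outlined for MACS, under 20 RPM included, and the black line is the gene. The high Qseq peaks of chinmo lie upstream, at 173.0 to 345.4 RPM, while MACS also has 184.9 RPM in an intron of chinmo. The MACS peak of 433.2 RPM in bab1 stands between Qseq peaks.

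Motifs were counted in the 5 Qseq peaks of chinmo and ab against all 694 Qseq peaks of 2L, on both strands. CACGCG was found in 3 of 5, and in 22.3% of all. CACGTG was found in none of the 5 and in 10.4% of all. These shares are not corrected for peak length. Per kb, CACGTG and CACGCG together had 0.651 matches in the 5 peaks and 0.410 over all. CACNAG, the N-box also known for E(spl) proteins, was found in 4 of 5 and 59.8%. GTGGGAA was found in 1 of 5 and 11.7%, and GTGAGAA, another form of the Su(H) core, in 1 of 5 and 9.22%. GAGAG, the letters that Trl and Psq bind, was found in 2 of 5 and 63.1%. GATC itself was found in 4 of 5 and 78.7%. Where CACGCG is followed by TG it matches on both strands with overlapping letters, as at chinmo, and counts as 2 matches. With bab1 and bab2 on 3L added, at least 1 of the E(spl) words was found in 4 of 10 peaks, and in 28.8% of 895. A match is a description of the letters and not a site, and 5 peaks are few.

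On 2R and 3R the numbering of the files matched Release 6 in none of 703 and 751 cases, on X in 14 of 436, and on 3L beyond 5647572 not throughout. The neighbours lola and psq on 2R formed the run with the most peaks in the family. Together they were named by 10 Qseq peaks over 118.8 kb (6371920 to 6490761 in the authors' numbering), which sum to 952.7 RPM. At lola 8 peaks were counted, a number that 43 genes reach, lola included. The highest, from 6421242 to 6423352, had 342.3 RPM (316.7 to 369.5), and it was followed by 139.7 RPM (123.5 to 157.5) and 72.2 RPM (60.7 to 85.2) in the gene. At the other end of lola, 26.0 and 46.2 RPM lay over lola and pre-lola-G, 76 bp apart. Between lola and psq 3 peaks of 74.8, 30.6 and 21.8 RPM named both genes and were counted for each. These were all below the peaks of 342.3 and 139.7 RPM in lola.

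Inside psq, Qseq gave 43.6 RPM (34.8 to 54.0) and 155.3 RPM (138.2 to 174.0), the latter from 6489322 to 6490761. MACS gave 36.9 and 145.4 RPM at these places and added 21.8, 39.5 and 257.6 RPM in psq. The last (235.5 to 281.3), from 6469684 to 6471762, is the highest MACS peak of the run, and the nearest Qseq peak is 10.1 kb away. Its order beside the 255.0 RPM peak of lola is not settled, because the interval rule cannot hold for that lola peak. MACS gave 255.0 and 120.0 RPM at the high lola peaks, joined the pair over pre-lola-G to 1 peak of 69.6 RPM, and added 48.8 RPM in lola. In the gap it gave 60.8, 41.0 and 22.3 RPM, and it held no peak at the 72.2 RPM place.

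Tramtrack was the third gene in order of its highest Qseq peak. Its 4 peaks on 3R lay within 17.0 kb. The highest, from 27538843 to 27540730 inside the gene, had 263.4 RPM (240.9 to 287.3; 507 reads), and 3.22% of the table matches or passes it. The others were 40.5 and 40.5 RPM inside the gene and 50.9 RPM (41.3 to 62.0) between ttk and CR34046, all with intervals below that of the highest. Relative to length ttk was the most densely named member, with 1.86 peaks per 10 kb, ahead of lola with 1.30. MACS gave 239.5 RPM (218.1 to 262.4) at the highest peak. It added 108.0 RPM (93.9 to 123.8) 687 bp from one of the weak Qseq peaks, as well as 18.2 RPM over ttk and CstF-50.

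The longest member, fru, had 3 Qseq peaks on 3R. Inside fru 21.3 RPM (15.3 to 28.9) and 37.9 RPM (29.7 to 47.7) lay 3465 bp apart, and 72.2 RPM (60.7 to 85.2) lay between fru and CG7691, 117.2 kb away. MACS gave 17.1, 28.1 and 73.8 RPM at these places. It added 40.0 and 150.6 RPM (133.8 to 169.0) in the stretch of fru where Qseq has no peak.

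**Figure D4:**
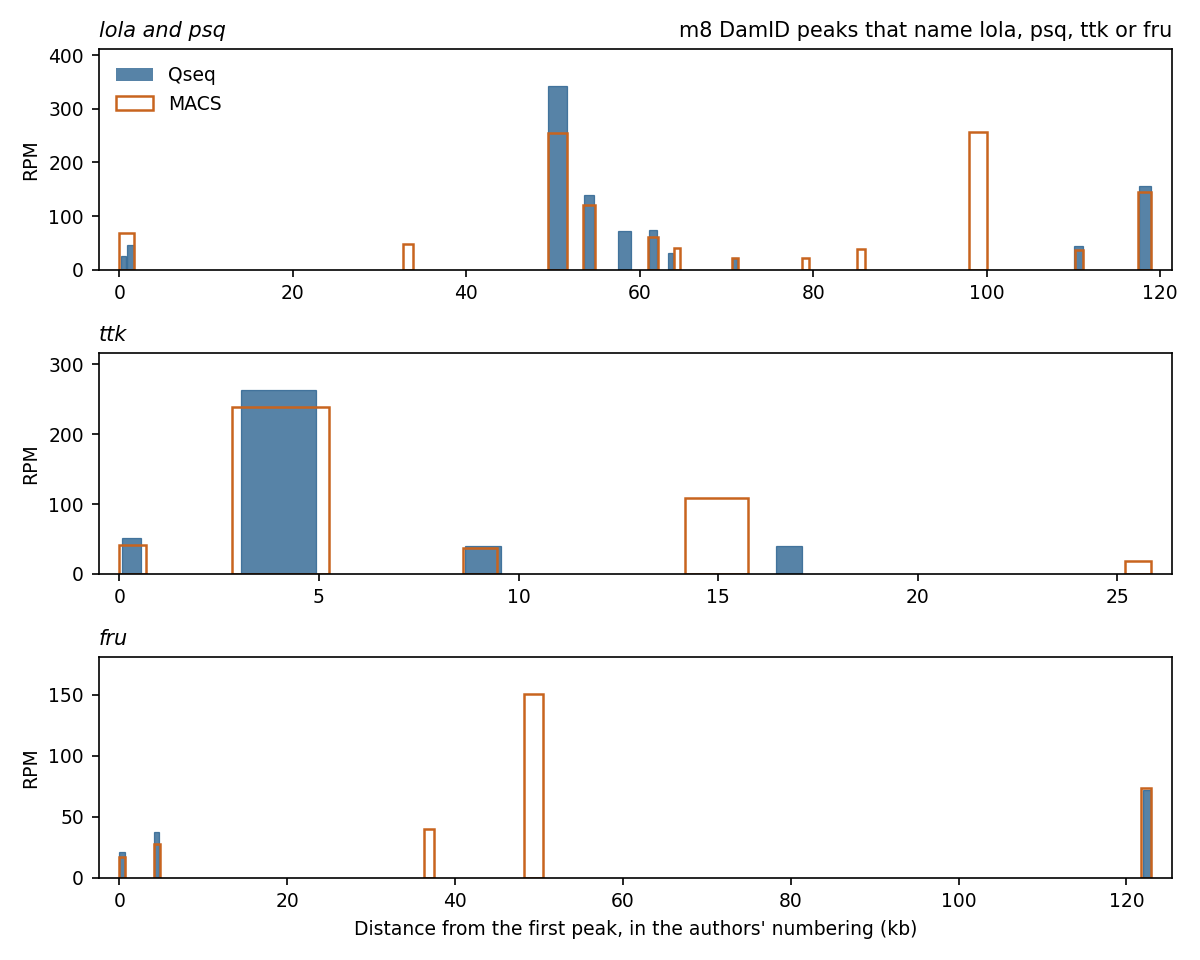
Peaks that name lola or psq, ttk and fru, by distance from the first peak in the authors' numbering (kb). Bar height is RPM and bar width is peak length, filled for Qseq and outlined for MACS. The highest Qseq peaks of lola and ttk were held by both callers. The high peaks in the middle of psq (257.6 RPM) and fru (150.6 RPM), and a peak of 108.0 RPM in ttk, were held by MACS alone.

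The GAGA factor gene Trl had a single Qseq peak, from 14752124 to 14753921 on 3L, which also covered CG33260. Its 180.8 RPM (162.3 to 200.8; 348 reads) is matched or passed by 6.07% of all Qseq peaks. MACS gave 172.5 RPM (154.4 to 192.0) at this place. Both callers used the same library, so the intervals do not measure the difference between them. The shortest member thus had a higher peak than fru, bab1, bab2 and ab in the Qseq table. In MACS the highest values of bab1 (433.2 RPM) and bab2 (184.4 RPM) lay above that of Trl, and those of fru and ab below it. By reads per bp the highest Qseq peak of bab1 (0.383) also passed that of Trl (0.194), while those of fru, bab2 and ab did not.

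Broad had no Qseq peak, though br spans 89.7 kb. The nearest Qseq peaks to its MACS peak lay 152.8 kb and 45.5 kb away and named other genes. MACS placed 85.7 RPM (73.1 to 99.8) inside br on X, from 1513837 to 1515117 in the authors' numbering. It lies above the MACS median of 54.0 RPM, and 29.5% of MACS peaks are as high or higher. The absence of br from the Qseq table is thus an absence from that table, while MACS holds a peak in the gene.

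Across the family, 19 of 28 Qseq peaks (67.9%) were overlapped by a MACS peak above 20 RPM, against 76.3% of all Qseq peaks. In the other direction 17 of 33 MACS peaks at members (51.5%) were overlapped by a Qseq peak, against 62.3% of all. Of the 16 MACS peaks at members without a Qseq peak 6 exceeded 100 RPM, at bab1, psq, chinmo, bab2, fru and ttk. The lowest of these, 108.0 RPM at ttk, is matched or passed by 21.0% of all MACS peaks above 20 RPM. The share among all MACS peaks without a Qseq peak was not counted. The callers differ on the same reads, and these overlaps are no replication. Both callers placed the highest peaks of ttk, lola, chinmo, ab and Trl at the same places.

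Of 12 other genes of the BTB family, 4 had a Qseq peak (33.3%, where 13.7% of all genes did) and the same number a MACS peak above 20 RPM (17.7% of all genes). The gene rib, which acts in tracheal and salivary tube growth, had 4 Qseq peaks, the highest at 240.0 RPM, ken had 2, up to 122.6 RPM, lolal had 53.0 RPM, and CG32121 had 47.8 RPM. Neither table above 20 RPM named mamo, Cp190, BtbVII, Tkr, CG3726, CG6765, CG8924 or CG12236. Of these 12 genes 3 are as long as Trl or longer, and none of those 3 was named. Among 10 regulators and partners of members, 5 had a Qseq peak, beside the same 13.7% of all genes. They are phyl (73.8 RPM), Syp (65.4 RPM), sina (54.5 RPM), Imp (51.4 RPM) and dsx (29.1 RPM). Of these 10 genes 4 are as long as Trl or longer, a length at which 50.8% of genes were named. Syp (54 kb), dsx (43.1 kb) and Imp (36.4 kb) are among those 4. The products of phyl and sina lead Ttk to degradation, Imp and Syp are RNA-binding proteins that set Chinmo levels in opposite ways, and dsx acts beside fru in sex determination. No Qseq peak named ebi, tra, tra2, let-7 or mir-125, of which MACS named ebi at 87.8 RPM and tra2 at 41.6 RPM. The name let-7 was matched to its host transcript, lncRNA:let7C. The difference between the lists and the members was not tested.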

How the data were processed

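DamID libraries were assembled by the authors with DNASTAR SeqMan NGen 12.2, normalized to RPM and searched for peaks with Qseq. The build named is dm6. The deposited RPM of a peak is its reads per 1000000 reads of the library, and the deposited count is its number of reads. The Qseq table was limited to peaks above 20 RPM with p under 0.05. No MACS version or settings are given in the sources used, and reads of MACS peaks were computed from the deposited RPM and the total of 1925156 reads. In 41.3% of 2392 cases a Qseq peak wholly inside a MACS peak has the higher RPM, so these MACS reads and intervals are nominal. Members and lists were chosen with earlier results of these data known. Every member is named, with each of its Qseq peaks, and list genes by highest RPM. Gene names were matched by symbol or by a synonym of a single gene in RefSeq Release 6. The sequence of 1 bab1 peak is not reported here. Peaks overlap when they share 1 bp. Alternatives were the other caller, peaks inside genes, peaks above the median, joining within 500 bp, reads per bp and the central 400 bp. The functions were tested on simulated data. Python 3.11.15, numpy 2.4.6, scipy 1.17.1 and matplotlib 3.10.9 were used.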

Additional observations from a re-analysis of the deposited data

How the results depend on the processing

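No paired analysis was possible because there is a single library, so that none could be left out either. The number of members named (9) was 9 with peaks inside genes alone, 9 with Qseq peaks at or above the median, and 10 with MACS. Among all genes the shares named were 13.7%, 10.4% inside genes alone and 17.7% with MACS. Among the long genes they were 50.8%, 47.1% and 59.5%. The share of all genes named at or above the median was not counted. The 28 member peaks became 20 inside genes alone, 19 at or above the median, 25 when joined within 500 bp, 33 with MACS above 20 RPM and 39 with both MACS tables. The median over the 10 members of the highest RPM was 116.4 in Qseq and 211.9 in MACS. For the Qseq value br, which has no Qseq peak, was entered as 0, which lowers that median. By reads per bp in place of RPM, the highest bab1 peak is matched or passed by 3.62% of Qseq peaks in place of 23.1%, while the highest peaks of other members rank lower: ttk 8.08% in place of 3.22%, lola 5.51% in place of 2.06%, Trl 17.0% in place of 6.07%, psq 14.2% in place of 7.65%, bab2 64.7% in place of 39.2%, and chinmo 3.32% in place of 1.99%. Those of ab (33.5%) and fru (33.8%) moved by less than 1.5 times. At least 1 of the E(spl) words (CACGTG, or else CACGCG) was found in 60% of the 5 member peaks on 2L, in 40% of 10 with bab1 and bab2, an alternative chosen after seeing the data, and in 0% within the central 400 bp, where 12.8% of all 2L peaks hold one. The other lists, of 12 and 10 genes, together gave 9 named genes with Qseq and 11 with MACS, where 13.7% and 17.7% of all genes were named. The 50.8% of long genes named, also chosen after seeing the data, stands against 13.7% of all genes.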

Other observations

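The callers gave different RPM to the same places. Of 14 member Qseq peaks that lie wholly inside a MACS peak, 8 have a higher RPM than the MACS peak around them, as at lola (342.3 in Qseq and 255.0 in MACS) and at ttk (263.4 and 239.5). Over all such pairs the share was 41.3% of 2392. How each caller counted its reads was not stated in the sources at hand.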
